A study of Mus musculus with 6 samples.

Results

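The early response of mouse embryonic stem cells to activin was described from 4 of the 6 arrays of the series, the 2 arrays of cells given activin and the 2 arrays of untreated control cells, chosen by the sample titles. All cells were E14Tg2a, a feeder-independent line grown without serum in N2B27. The medium held 20 ng/ml of BMP4 and 1000 U/ml of LIF. Activin was added at 10 ng/ml for 2 h, and the control cells received nothing that the labels name. BMP4 and LIF were therefore present in both groups. The remaining 2 arrays came from cells given SB431542, an inhibitor of the activin and Nodal type I receptors, at 5 µM for 24 h, and they enter here only through the estimate of the spread and as levels beside those of activin. Nothing in the labels tells separate cultures from repeat hybridisations, so a p-value here speaks only to the spread between arrays, which may be technical.

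Activin and Nodal bind type II receptors that activate type I receptor kinases, which phosphorylate Smad2 and Smad3. The phosphorylated Smads join Smad4 and reach target genes with partners such as Foxh1. BMP4 uses a parallel branch through Smad1, Smad5 and Smad9, and in embryonic stem cells the Id genes, whose products block basic helix-loop-helix factors, are its best known targets. Lefty proteins, Smad7 and Pmepa1 are induced by the activin branch and dampen it.

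The table has 45101 probe sets, those of the whole-genome Affymetrix mouse array, whereas the series' design text gives its smaller predecessor, the A array. A probe set is a group of short probes for a transcript, and its intensity is given here as log2 of the deposited value. Median intensities were 46 and 37 on the control arrays and 38 and 49 on the activin arrays, so each group held a dimmer and a brighter array. Of the 45037 probe sets that are not Affymetrix controls, 14541 had a mean over log2 7 on the 4 arrays, well above the highest value of 5.09 among 27 probe sets for bacterial transcripts that were not added. The probe set just inside that level belongs to Fam120a, with a difference of 0.11, and the one just outside to Map3k11, with −0.12. Of the 14541, 13433 carry a single gene symbol, 445 carry several and 663 carry none. They stand for 8405 genes. That mean takes in both groups, so a rising probe set could reach the level, or be its gene's brightest, through the activin arrays alone. A falling one could do so through the control arrays.

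The labelled cell type was checked against its markers. Pou5f1, Nanog and Sox2, the core pluripotency factors, stood at mean levels of 12.47, 12.39 and 12.39, and all 20 core and naive pluripotency genes were over log2 7. No fibroblast gene of 9 measured was over that level, and of 8 extraembryonic endoderm genes Dab2 alone was. The summed intensity of the 9 fibroblast genes was 393 to 437 on the control arrays and 483 to 536 on the activin arrays, with no gene at 0. That of 13 trophectoderm genes was 12051 to 13865 against 11298 to 11565. The sums of neither list overlapped between the groups. With no fibroblast gene over log2 7, the fibroblast sums do not tell cell content from background. The part of either list in the results below was not tested.

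Sequences upstream of transcription starts are shown for the response genes that the RefSeq promoter table holds, which are 3 of the 8 looked up. They are Id3 and Id2, which were lower on the activin arrays, and Spsb1, which was higher. Each is the 250 bases before the start on the transcribed strand of build GRCm38.p6, Id3 at chr4:136143572-136143821 on the plus strand, Id2 at chr12:25096093-25096342 on the minus strand and Spsb1 at chr4:149955007-149955256 on the minus strand. Capitals mark CAGAC, the core of the Smad-binding element, on either strand (GTCTG on the other), and GGCGCC, the GC-rich element known from BMP-responsive enhancers, which reads the same on both strands. No window held both motifs.
Id3: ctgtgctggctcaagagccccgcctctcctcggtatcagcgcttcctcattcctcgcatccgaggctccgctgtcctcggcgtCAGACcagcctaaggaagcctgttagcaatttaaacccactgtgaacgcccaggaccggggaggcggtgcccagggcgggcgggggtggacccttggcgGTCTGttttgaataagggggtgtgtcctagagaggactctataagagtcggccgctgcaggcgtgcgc
Id2: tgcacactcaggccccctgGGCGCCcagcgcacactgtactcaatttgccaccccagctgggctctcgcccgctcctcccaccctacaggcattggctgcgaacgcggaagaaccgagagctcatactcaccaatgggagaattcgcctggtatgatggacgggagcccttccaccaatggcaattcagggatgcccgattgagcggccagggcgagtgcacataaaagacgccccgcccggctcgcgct
Spsb1: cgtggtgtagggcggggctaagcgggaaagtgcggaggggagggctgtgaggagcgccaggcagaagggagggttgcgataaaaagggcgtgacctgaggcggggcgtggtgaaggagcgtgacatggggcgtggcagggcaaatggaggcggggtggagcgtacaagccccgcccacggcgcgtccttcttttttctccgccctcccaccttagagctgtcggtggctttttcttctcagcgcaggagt
The Id3 window holds CAGAC in 1 orientation or the other at 2 positions, starting 167 and 68 bases before the transcription start, and no GGCGCC. The Id2 window holds GGCGCC at 231 bases before the start and no CAGAC. The Spsb1 window holds neither. Among 32851 promoter windows of the same length in the table, 42.2% held CAGAC on either strand and 9.59% held GGCGCC, so these matches are descriptions of the sequence and mark no bound site.

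Activin and control arrays were compared to see what 2 h of added ligand does in these cells. Lefty2, Pmepa1, Smad7 and Spsb1, which dampen signalling of this receptor family, each had a probe set that rose by the test with an intensity trend. Lefty2 was 2.63-fold higher, and Pmepa1, Smad7 and Spsb1 were higher by 0.70, 0.82 and 0.88 on the log2 scale at that probe set. Id3 fell, at 2.06-fold lower, as did a probe set of Id2, at 1.56-fold lower. Lefty1 read 2.67-fold higher and Id1 1.86-fold lower, and neither passed. Of the 68 higher calls over log2 7 with a single gene symbol, 49 were at a probe set that was not the brightest of its gene.

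By limma at its default settings 0 of 45037 probe sets passed an adjusted p of 0.05 (0%), the smallest adjusted p being 0.789, and 2797 had an unadjusted p under 0.05. A second fit let the prior variance follow the level and estimated it robustly, and is called the intensity trend below. By it 97 passed (0.215%). Of these, 83 were over log2 7. These were 80 higher probe sets (0.550% of those over log2 7) and 3 lower ones (0.0206%), which were Anp32a, Id3 and Id2. Among all 97, 88 were higher and 9 lower. Counts depended on single arrays. They were 158 without control replicate 1, 139 without control replicate 2 (87 higher and 52 lower), 201 without activin replicate 1 and 21 without activin replicate 2. With the columns shifted to a common median 37 passed, of which 62.2% were higher, against 90.7% without the shift. That shift ended the calls of Pmepa1 (limma adjusted p = 0.468), Id2 (0.253), Smad7 (0.181) and Spsb1 (0.110), as well as those of Six4, Jun, Mcl1, Atf4, Tra2a, Ncl, Prdx4, Hspa14, Mrpl13, Minpp1, Hspa8 and Hsp90aa1 among the genes named below, and Lefty1 (5.64e-06) and Id1 (0.0261) passed with it. Only Lefty2 (adjusted p = 0.0083) and Id3 (adjusted p = 0.0171) passed the default limma fit when it was confined to probe sets over log2 7.

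Without a test, 2547 probe sets over log2 7 had both activin values above both control values (17.5%) and 2482 had both below (17.1%). Requiring a difference of at least 0.5 as well left 137 higher (0.942%) and 25 lower (0.172%). That split was 87 and 52 with the columns shifted. It was 280 and 35 without control replicate 1, 171 and 112 without control replicate 2, 305 and 31 without activin replicate 1, and 137 and 124 without activin replicate 2. Near that limit lay Hmmr, at 0.50 from 9.17 and 8.89 in control to 9.73 and 9.33, and just short of it, Fbxo30 at 0.4985. Of the 14541 differences 89.4% lay within 0.25 of 0 and 98.9% within 0.5, with an SD of 0.16 and a median of −0.00.

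**Figure D1:**
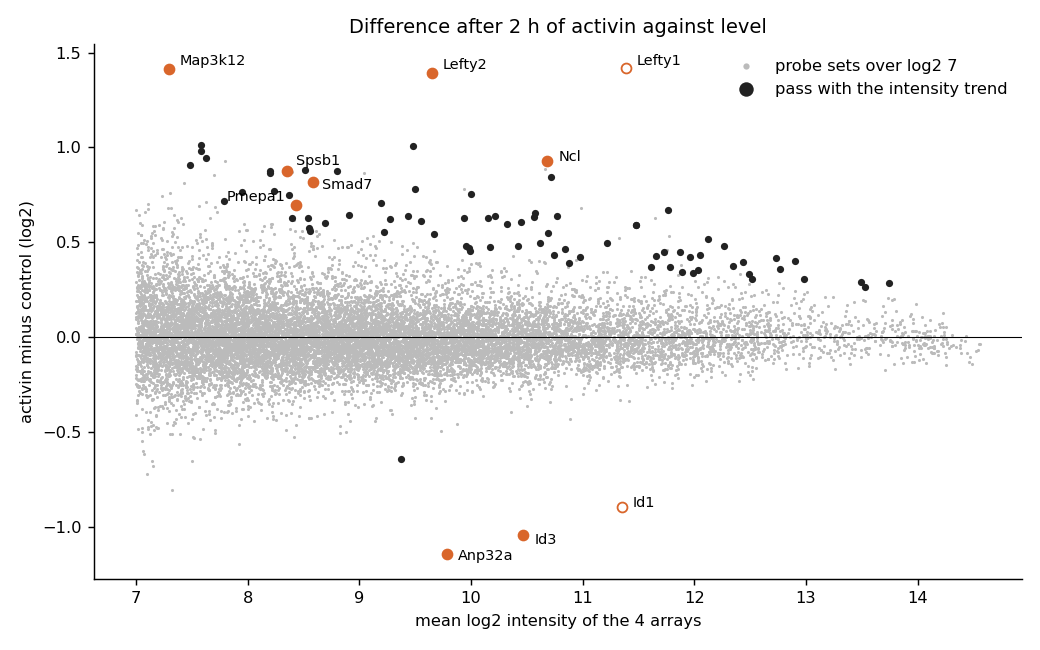
Activin minus control difference in log2 intensity against the mean log2 intensity of the 4 arrays, for the 14541 probe sets over log2 7 (grey). Black points passed with the intensity trend. Orange points are named genes at their most changed probe set, filled where they passed and open where they did not (Lefty1 and Id1). Lefty1, Lefty2 and Map3k12 stand at 1.39 to 1.42 and Anp32a, Id3 and Id1 at −0.90 to −1.15.

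Among the ligands and their antagonists, Lefty2, a secreted inhibitor of Nodal, read 8.96 and 8.95 on the control arrays and 10.40 and 10.29 on the activin arrays. Both activin values lay well above both controls, and the difference of 1.39 (SE 0.13) passed with the intensity trend (limma adjusted p = 2.03e-06). It also passed with each array left out, with both other scalings, with the replicate block and without robust estimation (limma adjusted p = 0.0188), with differences from 1.33 to 1.45. It did not pass with the arrays paired across their numbers, a fit in which limma called 0 probe sets. Lefty1, its neighbour and paralogue with the same role, read 10.78 and 10.57 in control and 11.998 and 12.19 with activin. The groups did not overlap and the difference was 1.42 (SE 0.30), but Lefty1 did not pass with the intensity trend (limma adjusted p = 0.341). In that fit the spread of all 3 groups is shared, and the SB431542 arrays of Lefty1 read 5.59 and 4.70. Fitted on the 4 control and activin arrays alone it passed with the intensity trend and did not by default (limma adjusted p = 0.931). With the probe sets of each gene averaged it passed as well (limma adjusted p = 0.0471 with the intensity trend). So it did with the replicate block (limma adjusted p = 4.8e-05) and after repeated quantile normalization (0.0131). Lefty1 did not pass when only probe sets over log2 7 were fitted (limma adjusted p = 0.24 with the intensity trend) or without robust estimation (0.0985). Its differences without 1 array at a time ran from 1.32 to 1.52.

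Nodal, the endogenous ligand of the same receptors, read 10.53 and 10.49 in control and 10.66 and 10.64 with activin at its brighter probe set, a difference of 0.14 (SE 0.13). Its second probe set gave 0.17 (SE 0.14) with overlapping arrays. Tdgf1, the Nodal coreceptor, was at 12.45 and 12.39 in control and 12.58 and 12.70 with activin, a difference of 0.22 that did not pass (limma adjusted p = 0.331 with the intensity trend). Fst, which binds activin, was at −0.16 with overlapping arrays, and Gdf3, a ligand of the family, at −0.08. Of the 14 measured ligands, antagonists and coreceptors 9 were over log2 7. On their brightest probe sets 4 of the 9 had both activin arrays above both controls and 1 below, where the shares over all 8405 genes were 15.0% and 19.1%. Their median difference was 0.12 against −0.02 for all genes. By the intensity trend 1 passed as higher, as did 66 of all 8405 genes on at least 1 probe set.

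Receptors and signal-carrying Smads had no call. Of 10 such genes over log2 7, none passed with the intensity trend and the median difference was −0.03. Of all probe sets over that level, 0.550% passed as higher and 0.0206% as lower. Smad2, Smad3 and Smad4 were at −0.08, −0.02 and −0.01 on their brightest probe sets, and Foxh1 at 0.08. The largest difference was that of Acvr2a, a type II activin receptor, at −0.33 (SE 0.16), from 8.12 and 7.91 to 7.53 and 7.83. Trim33, a ubiquitin ligase that acts on Smad4, was at −0.19 and the type I receptor Tgfbr1 at 0.16, both with groups that did not overlap and neither past the test.

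Inhibitors within the cell held 3 calls. Pmepa1, a membrane protein that sequesters Smad2 and Smad3, read 8.16 and 8.01 in control and 8.93 and 8.64 with activin. The difference was 0.70 (SE 0.17), and it passed with the intensity trend (limma adjusted p = 0.0349) but not without control replicate 2 (0.137), activin replicate 1 (0.304) or activin replicate 2 (0.0841), nor after repeated quantile normalization. A dimmer Pmepa1 probe set read 5.36 and 5.49 against 6.02 and 6.43 and did not pass (limma adjusted p = 0.600 with the intensity trend). Smad7, the inhibitory Smad that blocks type I receptors, had a probe set at 8.08 and 8.26 in control and 8.97 and 9.02 with activin, a difference of 0.82 (SE 0.13, adjusted p = 0.0016 by limma with the intensity trend, 0.0831 without activin replicate 2). Its brighter probe set read 9.18 and 9.28 against 9.42 and 9.80, a difference of 0.38 (SE 0.17) that did not pass. Both Smad7 probe sets had every activin value above every control value.

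Spsb1, an adaptor of a ubiquitin ligase that acts on TGF-beta receptors, read 8.01 and 7.82 in control and 8.74 and 8.83 with activin. The difference was 0.88 (SE 0.15, adjusted p = 0.0032 by limma with the intensity trend, 0.136 without activin replicate 2). Its 3 other probe sets were at 0.18, 0.09 and 1.10, the last of them at a mean level of 5.19. Skil, a Smad corepressor, was at 0.13 (SE 0.12) and 0.11 (SE 0.12) on its probe sets, each with both activin values above both controls, and neither passed. Of 12 genes of negative feedback on Smad2 and Smad3 over log2 7, 3 rose by the intensity trend on at least 1 probe set (Pmepa1, Smad7 and Spsb1). Of all 8405 genes over log2 7, 66 did so. On the brightest probe sets 5 of the 12 stood above both controls and 1 below (15.0% and 19.1% of all genes), with a median difference of 0.12.

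No other measured gene of the list of Nodal and activin targets passed. Eomes, a T-box factor of mesendoderm, was at 0.25 (SE 0.14) and 0.15 (SE 0.24) on its probe sets, and the primitive streak factor Mixl1 at −0.14. Fgf8 stood at 6.68, below log2 7, and differed by 0.04. Over the list of Nodal and activin targets, 10 of 15 measured genes were over log2 7, 8 of the 10 stood above both controls and none below (15.0% and 19.1% of all genes), and the median difference was 0.23. Lefty1, Lefty2, Smad7, Skil and Pmepa1 are in that list as well as in those above.

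**Figure D2:**
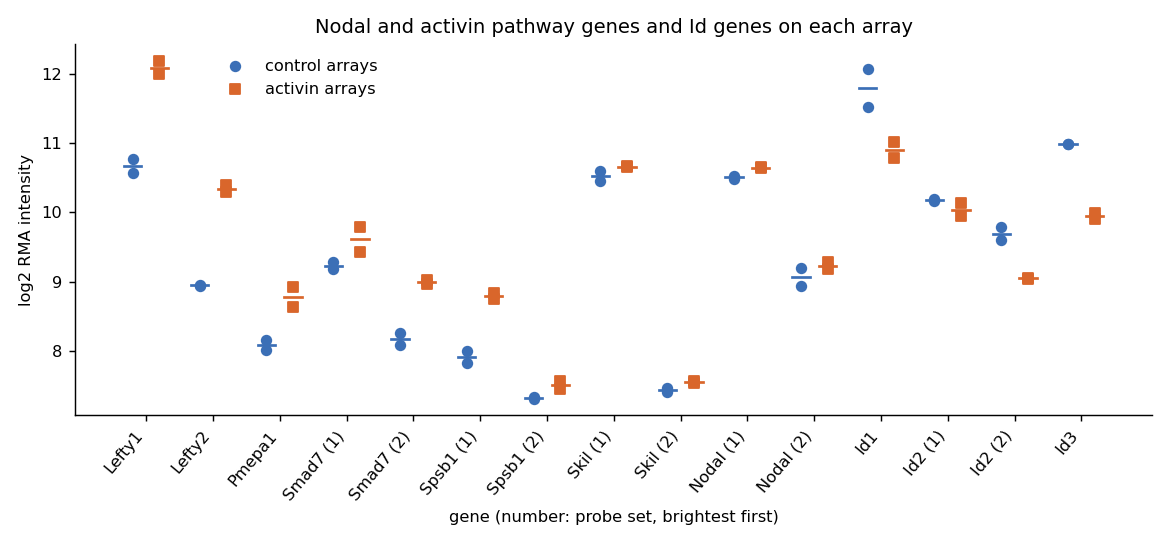
log2 intensity on each of the 2 control arrays (blue circles) and 2 activin arrays (orange squares), with a line at the group mean, for genes of the Nodal and activin pathway and Id genes, with a number where a gene has more than 1 probe set over log2 7. The Lefty, Pmepa1, Smad7 and Spsb1 values with activin lie above both controls. Those of Id1, Id2 and Id3, the Id genes shown, lie below, while Skil and Nodal differ by at most 0.17.

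Among the Id genes, Id3 and a probe set of Id2 fell. Id3 read 10.98 and 10.99 on the control arrays and 9.99 and 9.90 on the activin arrays. Each group was tight and the difference of −1.04 (SE 0.12) passed with the intensity trend (limma adjusted p = 2.36e-09), with a range from −1.11 to −1.0 over the alternatives. It passed under the same alternatives as Lefty2 (limma adjusted p = 0.0013 without robust estimation) and likewise not with the arrays paired across their numbers. Id1 read 12.07 and 11.53 in control and 10.79 and 11.02 with activin. The control arrays of Id1 differed by more than the activin arrays, the difference was −0.90 (SE 0.21), and it did not pass (limma adjusted p = 0.194 with the intensity trend). Without control replicate 1 it was −0.62 and without control replicate 2 it was −1.17. Without activin replicate 1 it was −0.78 and without activin replicate 2 it was −1.01. Id1 passed with the intensity trend on the 4 arrays alone and with averaged probe sets (limma adjusted p = 0.0471). It also passed with the replicate block (limma adjusted p = 0.0187) and after repeated quantile normalization (0.0291). It did not pass when only probe sets over log2 7 were fitted (limma adjusted p = 0.122) or without robust estimation (0.11).

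Id2 had a probe set that fell from 9.78 and 9.60 to 9.06 and 9.04, a difference of −0.64 (SE 0.13, adjusted p = 0.0011 by limma with the intensity trend). The call was lost without robust estimation (limma adjusted p = 0.0864) and with the probe sets of each gene averaged (0.609). Its brighter probe set read 10.17 and 10.19 against 10.14 and 9.95, a difference of −0.14 (SE 0.13) that did not pass. Id4, at 8.53 and 8.36 against 8.24 and 8.26, differed by −0.19 (SE 0.13). On the brightest probe set of each, all 4 Id genes had every activin value below every control value, as did 19.1% of all genes. Of these probe sets only that of Id3 passed. The second Id4 probe set over log2 7, at −0.05, had overlapping arrays.

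Further BMP targets were mixed. Smad6, the inhibitory Smad of the BMP branch, read 7.65 and 7.34 in control and 7.86 and 7.56 with activin, a difference of 0.21 (SE 0.19). Bambi, a decoy receptor, was at 0.02, and Msx2, a homeobox gene, at −0.01. Tbx3, a T-box factor, was at 0.17, and Smad7, which is also a BMP target, rose as above. Over 12 BMP targets over log2 7, 6 lay below both controls and 2 above (19.1% and 15.0% of all genes), with a median of −0.03 against −0.02 for all genes. Among BMP receptors and Smads, Smad1, which carries the BMP signal, was at 0.26 (SE 0.11) and Bmp4, the ligand gene, at −0.24 (SE 0.13), and none of the 7 passed.

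The SB431542 arrays share the control arrays with this comparison, so only levels are set side by side. Mean levels on them were 3.90 for Lefty2, 5.14 for Lefty1, 7.10 for Pmepa1, 7.55 for the more responsive Smad7 probe set and 6.78 for Spsb1. For Id3, Id1 and the more responsive Id2 probe set they were 11.46, 12.40 and 10.42.

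Immediate early genes, which many stimuli induce within the hour, were mixed. Jun, a subunit of AP-1, read 8.33 and 8.22 in control and 8.89 and 8.77 with activin. The difference of 0.56 (SE 0.12) passed with the intensity trend (limma adjusted p = 0.0419). On the SB431542 arrays it read 8.95 and 9.01. Jun did not pass without control replicate 2, activin replicate 1 or activin replicate 2, with the 4 arrays alone or after repeated quantile normalization, and its other probe set was at 0.18 with overlapping arrays. Mcl1, an antiapoptotic relative of Bcl2, passed at its brightest probe set with 0.42 (SE 0.15, limma adjusted p = 0.0118), from 12.48 and 12.57 to 12.80 and 13.08, while its 5 other probe sets lay between −0.01 and 0.19. Mcl1 did not pass without control replicate 1, without activin replicate 2 or after repeated quantile normalization. Btg2, Atf3, Ccn1, Myc and Junb were at 0.43, 0.47, 0.38, 0.31 and 0.29, each with activin above control on every array and none past the test. Fos, Egr1 and Ier2, the classic serum-responsive members, were at −0.20, 0.01 and −0.03 with overlapping arrays. On brightest probe sets 8 of 19 members stood above both controls and 3 below (15.0% and 19.1% of all genes), with a median of 0.03.

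Feedback genes of FGF and ERK signalling were mixed. Il17rd, a membrane inhibitor of FGF signalling, was at 0.41 (SE 0.14), from 9.50 and 9.36 to 9.74 and 9.94, and Spry4, another inhibitor, at −0.36 (SE 0.12), from 9.30 and 9.29 to 8.91 and 8.95. Of 13 members 1 stood above both controls and 4 below (15.0% and 19.1% of all genes), with a median of −0.01. Neither gene passed, and the groups did not overlap for either.

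No pluripotency gene passed with the intensity trend, where 0.550% of all probe sets over log2 7 passed as higher and 0.0206% as lower. The 20 core and naive genes had a median difference of −0.01, with a range from −0.22 for Tfcp2l1 to 0.23 for Prdm14. Arrays overlapped for 14 of the 20, against 5535 of all 8405 genes over log2 7. Pou5f1, Nanog and Sox2 were at −0.04 (SE 0.13), 0.05 (SE 0.12) and 0.02 (SE 0.12). LIF and Stat3 response genes had a median of −0.00 over 10 members, with Socs3 at −0.06. No member of either list passed.

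Genes of the primed epiblast were led by Fgf15, an FGF ligand, at 7.43 and 7.27 in control and 8.11 and 7.83 with activin. The difference was 0.63 (SE 0.15) and did not pass (limma adjusted p = 0.341 with the intensity trend). Lef1, a Wnt effector, was at 0.43 and Otx2, a homeobox factor of the epiblast, at 0.42, while Dnmt3b and Pou3f1 were at −0.03 and −0.08. These 3 of 9 members stood above both controls and none below (15.0% and 19.1% of all genes), and the median was −0.03. Krt8 and Krt18, the keratins of simple epithelia counted among trophectoderm genes, were at −0.20 and −0.23.

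Stress and splicing lists held isolated calls. Of 11 genes of the integrated stress and unfolded protein response 5 stood above both controls and 2 below (15.0% and 19.1% of all genes), with a median of 0.14 against −0.02 for all genes. Chac1, a target of Atf4, differed by 0.48 (SE 0.13) and missed the threshold (limma adjusted p = 0.0580 by the intensity trend), from 9.16 and 9.11 to 9.65 and 9.59. Atf4, the transcription factor at the centre of that response, was at 0.19 on its brightest probe set and passed at a dimmer one with 0.63 (limma adjusted p = 0.000691). Tra2a, a splicing regulator, passed at its brightest probe set, with 10.23 and 10.25 in control and 10.76 and 11.03 with activin. The difference was 0.65 (SE 0.15, limma adjusted p = 0.000246). On the SB431542 arrays that probe set read 11.60 and 11.38, and the passing probe set of Atf4 read 11.20 and 11.05. The other 16 SR proteins and kinases measured lay between −0.21 and 0.17 on their brightest probe sets. Atf4 and Tra2a did not pass without activin replicate 2.

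Agreement between arrays was examined with array pairs that share no array. Across the 14541 probe sets, activin 1 minus control 1 correlated with activin 2 minus control 2 at r = 0.10, and activin 1 minus control 2 with activin 2 minus control 1 at r = 0.22. These are descriptions across probe sets, which are not independent and which share each array's background and scaling. The SD of differences within a group was 0.20 for control and 0.20 for activin, and that of the 4 activin minus control array differences ran from 0.20 to 0.22. Of the 14541, 7 probe sets had a group difference of at least 1, and single arrays differed by as much at 13 probe sets within control and 12 within activin.

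The 4 array differences of the named genes varied in size. Lefty2 ranged from 1.33 to 1.45 and Id3 from −1.09 to −0.998. Lefty1 ranged from 1.22 to 1.62, Spsb1 from 0.74 to 1.01 and the more responsive Smad7 probe set from 0.70 to 0.94. Id1 ranged from −1.28 to −0.51 and Pmepa1 from 0.48 to 0.92. Map3k12, a kinase of the JNK pathway, ranged from 0.97 to 1.86.

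**Figure D3:**
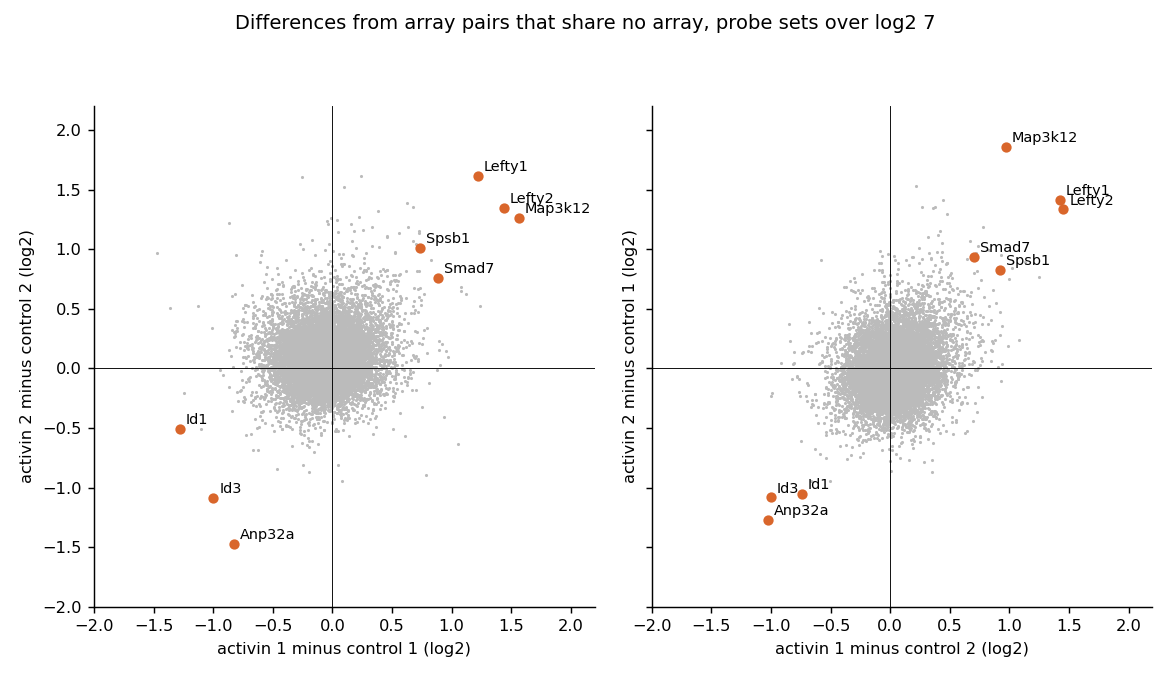
Differences in log2 intensity of activin minus control from 2 array pairs without a common array, for the 14541 probe sets over log2 7 (grey) and named genes (orange), with same-numbered arrays on the left and the numbers crossed on the right. The cloud of all probe sets is nearly round (r = 0.10 and r = 0.22), and Lefty1, Lefty2, Map3k12, Anp32a, Id3 and Id1 lie outside it on the same side in both axes. For any probe set whose groups do not overlap, the same side in both axes follows by construction. Map3k12 and Anp32a were named from such probe sets.

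Agreement between the probe sets of a gene was limited. Of the 8405 genes over log2 7, 3293 had at least 2 probe sets there. Among the 2144 with exactly 2, the differences had the same sign in 53.5%. In 181 of the 3293 (5.50%) every probe set had both activin values on the same side of both controls, 98 higher and 83 lower. Smad7, Spsb1, Skil and Id2 were among them. Of all probe sets over log2 7, 17.5% lay above both controls and 17.1% below, so some genes would meet this without a response. How many was not tested. Six4, a homeobox gene, had 3 probe sets over log2 7 at 0.24, 0.60 and 0.87, of which the last passed (limma adjusted p = 0.000751 with the intensity trend) from 7.69 and 7.85 to 8.51 and 8.75, though not without activin replicate 2. Carnmt1, a methyltransferase, was at 0.23 and 0.78, and Ccdc28a was lower on both its probe sets, at −0.81 and −0.25.

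Most probe sets that passed were not matched by another of the same gene. Of the 68 higher probe sets with a single symbol, 58 had another probe set of the gene over log2 7, and it was the brighter of the pair in 49. The median difference was 0.60 for the passing probe set and 0.04 for the brightest other, which was higher in 40, stood above both controls in 19, stood below both in 7, reached 0.5 in 0 and itself passed in 1. Only the passing probe sets were chosen for their difference on these same arrays. A gap in size is therefore built into the comparison, as it is for the untested set below. The untested set gave a like picture. Of 119 higher probe sets that stood apart from control by 0.5 or more, 89 had another, with medians of 0.60 and 0.03. Of 23 lower ones 15 had another, with medians of −0.54 and −0.08. Taking the brightest probe set of each gene alone left 40 genes higher (0.476%) and 11 lower (0.131%) by 0.5 or more. Some of the higher genes were over log2 7 only through the activin arrays, such as Dmxl1 (6.79 and 6.54 in control) and Ppfia4 (6.92 and 6.59). Some of the lower ones were so only through the control arrays, such as Asb1 (6.86 and 6.77 with activin).

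**Figure D4:**
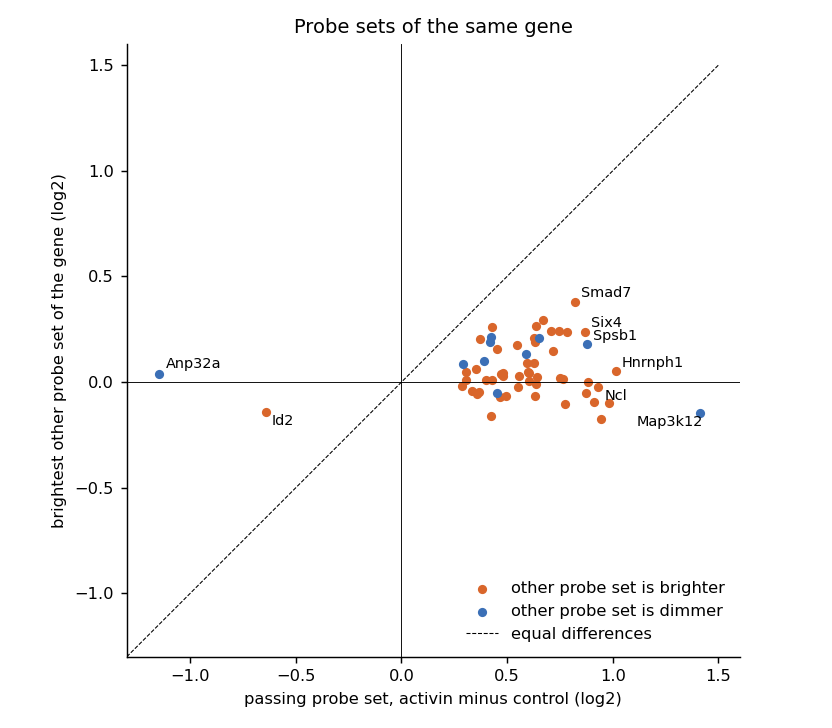
Activin minus control difference of each probe set that passed with the intensity trend and was over log2 7 (horizontal axis) against that of the brightest other probe set of the same gene (vertical axis), in log2 units, coloured by whether that other probe set is brighter or dimmer. Points on the dashed line would have equal differences. Only the probe sets on the horizontal axis were chosen by their difference, which builds a gap into the comparison. The other probe sets lie between −0.17 and 0.38, with Smad7 the highest.

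Ncl, a nucleolar protein of ribosome assembly, had a passing probe set at 10.37 and 10.07 in control and 11.09 and 11.21 with activin, a difference of 0.93 (limma adjusted p = 2.8e-07 with the intensity trend). Its brightest probe set, at a mean level of 13.77, differed by −0.02. Hnrnph1, a splicing factor, was at 1.01 on the passing probe set and at 0.05 on the one at 12.58. Siva1, Prdx4, Hspa14, Mrpl13 and Minpp1 rose by 0.98, 0.87, 0.88, 0.91 and 0.94 at the passing probe set and stood at −0.10, −0.05, 0.00, −0.10 and −0.17 on the brightest. Of these, the calls of Siva1, Hnrnph1, Mrpl13 and Minpp1 did not hold without activin replicate 2, nor that of Mrpl13 without control replicate 2. The heat shock genes Hspa8 and Hsp90aa1 likewise passed at a secondary probe set, at 0.40 and 0.29, with 0.01 and −0.02 on the brightest. Neither passed without control replicate 1 or without activin replicate 2, nor Hspa8 after repeated quantile normalization or when only probe sets over log2 7 were fitted.

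Anp32a, a histone chaperone and phosphatase inhibitor, had the largest fall over log2 7. Its passing probe set read 10.26 and 10.46 in control and 9.43 and 8.99 with activin, a difference of −1.15 (SE 0.19, adjusted p = 4.97e-07 by limma with the intensity trend). Its other probe sets over log2 7 were at 0.04 and 0.04, with overlapping arrays. Map3k12 showed the same split in the other direction, with 6.29 and 6.88 in control and 7.85 and 8.14 with activin on its brighter probe set, a difference of 1.41 (SE 0.27, adjusted p = 9.79e-05 by limma with the intensity trend), and −0.15 on its next. Mean levels of the SB431542 arrays were 10.27 for that Anp32a probe set, 8.65 for that Map3k12 probe set, 11.26 for that of Ncl and 8.96 for that of Hnrnph1.

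Probe sets whose probes also match other sequences were frequent among the calls. In Affymetrix naming, the suffix _x_at marks a probe set with probes that can hybridise to unrelated transcripts, and _a_at one shared by transcripts of a gene. Of the 14541 probe sets, 1140 end in _x_at (7.84%), and they gave 27 of the 80 higher calls, or 33.8%. Those ending in _a_at are 2635 (18.1%) and gave 23 calls (28.8%), and plain _at probe sets are 9552 (65.7%) and gave 23 calls. The remaining 1214 end in _s_at (8.35%) and gave 7 calls (8.75%). Put by type, 2.37% of _x_at probe sets passed as higher against 0.241% of plain _at ones. The part of probe set design in these calls was not tested.

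Calls without a second probe set over log2 7 for comparison numbered 10 among the higher ones, named here after their values were seen. They are Lefty2, Pmepa1, Jun, Rbmxl1, Ect2, Depp1, Rex2, Fzd7, Dync1i2 and Lsm2. Rbmxl1, a retrogene of the RNA-binding protein gene Rbmx, read 11.90 and 11.83 in control and 12.32 and 12.44 with activin (0.51, SE 0.12, adjusted p = 0.000122 by limma with the intensity trend). Depp1, a FoxO-responsive gene, read 9.27 and 9.21 against 9.77 and 9.95 (0.61, SE 0.13, limma adjusted p = 0.0021). Rad21, a cohesin subunit, passed at the brightest of its probe sets, at 11.10 and 11.27 against 11.79 and 11.75. The difference was 0.59 (SE 0.13, limma adjusted p = 9.34e-05), with 0.13 on the next probe set. On the SB431542 arrays Rbmxl1 read 12.64 and 12.56, Depp1 9.94 and 10.05, and Rad21 12.12 and 12.01.

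The largest falls without a call were mostly of dim probe sets. Ccdc28a, Grina, Iars2, Asb1, Yif1a, Cux1, Mast3 and Vps8 lay between −0.81 and −0.54 at probe sets with mean levels of 7.06 to 7.58, and none passed. Iars2, a mitochondrial isoleucyl-tRNA synthetase, differed by −0.68 on that probe set and by 0.07 on its brighter one. Marcksl1 and Ywhaz, among the largest rises, did not pass either. Marcksl1, a regulator of actin, was at 0.93 on a probe set with activin values of 7.67 and 8.85 and at 0.13 on its brightest. Ywhaz, a 14-3-3 protein, was at 0.88 on a probe set with control values of 9.83 and 10.60 and at −0.11 on its brightest.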

How the data were processed

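RNA of 6 samples of E14Tg2a cells was measured on single-colour Affymetrix arrays. Per the submitters' processing notes the deposited intensity values were made with RMA (no version given), and per the deposited table they are on a linear scale, as whole numbers from 6 to 26405. Which program ran RMA, and on which arrays together, is not stated. Intensities were converted to log2 with no further normalization, and 64 Affymetrix control probe sets were left out. All 6 arrays were fitted in limma 3.58.1 (R 4.3.3) with a mean per group. To 3 residual degrees of freedom the variance prior added 2.51 by default. With the intensity trend it added a median of 34.3, since robust estimation lets the number differ between probe sets. Benjamini-Hochberg adjustment ran over 45037 probe sets, with a threshold of 0.05. The fit was tried on simulated data with independent probe sets and no array effect. Such data cannot speak to the dependence of the calls on arrays or scaling. A gene is named only from a probe set with a single symbol. Of 34945 such probe sets, 34741 had their Entrez identifier in the RefSeq table.

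Named genes were Lefty2, Pmepa1, Smad7, Id3, further genes of the pathway and of pluripotency, the 12 largest rises and falls over log2 7 with non-overlapping arrays, at most 12 calls each way, and members of 24 gene lists (315 entries, 299 matched) that passed or stood apart by 0.5. Members that define a list were added. The members, lists and tests were chosen with earlier results of these data known. Alternatives changed the variance model, arrays, scaling, filter and averaging. The number of arrays sets the precision.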

Additional observations from a re-analysis of the deposited data

How the results depend on the processing

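The count of 0 by default stayed 0 with 4 arrays only, a replicate block, repeated quantile normalization, averaged probe sets and each array left out (0 to 0). It became 2 with only probe sets over log2 7, 78 where columns were shifted to a common median, and 97 where the prior variance followed the level. With the intensity trend the 97 became 157 with the replicate block, of which 97 were shared, 37 with columns shifted (16 shared), 10 with a gene's probe sets averaged, 4 with the trend but no robust estimation (Lefty2, Ncl, Id3 and Anp32a), and 21 to 201 without an array. Deviations of same-numbered control and activin arrays correlated at −0.14 over all probe sets, which are not independent. That value gives no sign of pairing by number and cannot settle it. Pairing across the numbers, chosen after seeing the data, gave 0 calls in both fits. It was fitted on the 4 control and activin arrays alone, which leaves few residual degrees of freedom. The 162 probe sets standing apart became 405 with a level of log2 6, 80 with log2 8, 5029 with no minimum difference, 7 with a minimum of 1, 44 with averaged probe sets, and 261 to 336 without an array. The cause of these changes was not tested. No named probe set changed sign in a fit that it passed. Lefty2 and Id3 passed the intensity trend in every alternative run except the pairing across numbers. Anp32a also failed with averaged probe sets, and Map3k12 there and without robust estimation. Shifting columns moved the median difference of all probe sets from −0.00 to −0.07.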

Other observations

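Below log2 7, the intensity trend called 14 probe sets, of which 8 were higher and 6 lower, by limma with Benjamini-Hochberg adjustment. Gm12108 read 4.86 and 4.81 on the control arrays and 6.51 and 6.71 on the activin arrays, a difference of 1.78 (adjusted p = 0.000691). Parp3, a poly(ADP-ribose) polymerase, differed by 1.45 and Itsn1, an endocytic scaffold protein, by 1.28, from control values of 4.70 to 5.21. These control values lie near or under the highest unspiked bacterial value of 5.09, so the size of the change is limited by background. Of the 6 lower probe sets none has a single gene symbol, and their control values were 3.58 to 5.04, all under that bacterial value.

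Several genes not on any list stood apart from control by 0.5 or more on their brightest probe set without passing, and were chosen after their values were seen. Sox21, a neural SoxB2 factor, read 7.25 and 7.18 in control and 7.97 and 7.85 with activin. Dkk1, a secreted Wnt inhibitor, read 8.01 and 7.59 against 8.36 and 8.24, and Nrarp, a Notch feedback inhibitor, 7.02 and 6.71 against 7.38 and 7.41. Cish, a cytokine feedback inhibitor, was lower, at 7.86 and 7.68 against 7.08 and 7.41. In each the arrays of the groups did not overlap.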
